A study of Sus scrofa with 6 samples.

Results

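Lipid droplet coats and lipases are the proteins that cover the neutral lipid stores of a cell and release fatty acids from them. Expression of 10 of their genes was examined in pig liver: the perilipins PLIN2, PLIN3, PLIN4 and PLIN5, the CIDE proteins CIDEB and CIDEC, the lipases PNPLA2 and LIPE, and the lipase regulators ABHD5 and G0S2. The genes were listed by function, with earlier results of these data known, and were looked up in a table of 121055 assembled loci. An Ensembl gene identifier was attached to 22571 of the loci, called known here. Only 5 of the 10 stand in the table under their current symbol (PLIN2, PLIN3, PLIN4, ABHD5 and G0S2). The other 5 were found under older names, each tied to the current symbol by its Ensembl identifier and by a RefSeq synonym: LSDP5 for PLIN5, CIDE-B for CIDEB, CIDE-C for CIDEC, ATGL for PNPLA2 and HSL for LIPE. PLIN2 has a pair of loci. The locus named PLIN2 lies on an unplaced scaffold and was at 0.0344 FPKM or less in every library, and the locus named ADFP, which the table describes as perilipin 2, was at 2 FPKM or more. The ADFP locus was used for PLIN2, since it has the higher mean.

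Liver RNA came from 3 normal pigs and 3 pigs with intrauterine growth restriction (IUGR), all males of the PIC breed aged 150 days, with 1 library per pig. They were drawn from 8 litter pairs with a birth weight of about 1.49 kg for normal and 0.97 kg for IUGR piglets, which were housed together and kept off feed before slaughter. Values are FPKM, the fragments mapped to a locus per kilobase of its exons and per library size in mapped fragments, so that levels of different genes can be compared per length. The number of reads behind each value is unknown. Each difference below is IUGR minus normal on log2(FPKM + 1), tested with limma's moderated two-sided test over the 14727 known loci with a mean of at least 0.3 FPKM, and adjusted by the Benjamini-Hochberg method over all of them. All 10 genes passed this filter, with an estimate marked OK in every library.

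The libraries differed as a whole. The median FPKM of the tested loci was 5.94 in normal 1, 5.81 in IUGR 2 and 5.10 in IUGR 3, which had the larger total mapped ratio in the alignment, and 4.26 in normal 2, 3.83 in normal 3 and 4.82 in IUGR 1. Of all tested loci, 43.0% were highest in normal 1 and 50.9% lowest in normal 3. The median log2 fold change of all tested loci was 0.15, against which the values below are to be read. Hepatocyte transcripts were abundant, with TTR, a plasma carrier protein, at 6129 to 11875 FPKM, while ALB was listed at 0 in every library with a status of too much data. TF, another hepatocyte marker, was listed at 0 in normal 1, IUGR 2 and IUGR 3, the libraries of larger mapped ratio. It was at 4780, 6643 and 7906 FPKM in normal 2, normal 3 and IUGR 1. In bulk tissue, fewer cells of a type and less RNA per cell cannot be told apart.

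A lipid droplet is a core of triglyceride and sterol ester under a single layer of phospholipid. Perilipins sit on that layer and govern which lipases reach the core, and CIDE proteins at the contacts between droplets let lipid pass from the smaller to the larger. Triglyceride is first cut by the lipase PNPLA2, which ABHD5 activates and G0S2 inhibits, and the diacylglycerol formed is cut further by LIPE. In hepatocytes the fatty acids freed in this way feed oxidation or are built into very low density lipoprotein.

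The 10 genes spanned a wide range of levels. CIDEB, ABHD5 and G0S2 stood highest, with a mean over all libraries of 56.3, 53.3 and 46.6 FPKM, at percentiles 92.6, 92.2 and 91.1 of all tested loci. Their ranges overlapped, and the order among them changed from library to library. G0S2 stood above PLIN3 in 6 of 6 libraries without overlap (3.72 times in the mean). PLIN3 at 12.5 FPKM and PNPLA2 at 10.6 FPKM came next and overlapped each other. Below them, again without overlap, were CIDEC at 5.70 FPKM and PLIN5 at 5.17 FPKM, which overlapped each other. PLIN2 at 2.86 FPKM was below PLIN5 in 6 of 6 libraries, PLIN4 at 1.36 FPKM below PLIN2 in 6 of 6, and LIPE at 0.499 FPKM below PLIN4 in 6 of 6, although the ranges of each pair overlapped across libraries. LIPE was at percentile 6.42 of the tested loci, and PNPLA2 exceeded it by 18.7 to 32.6 times within a library.

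**Figure D1:**
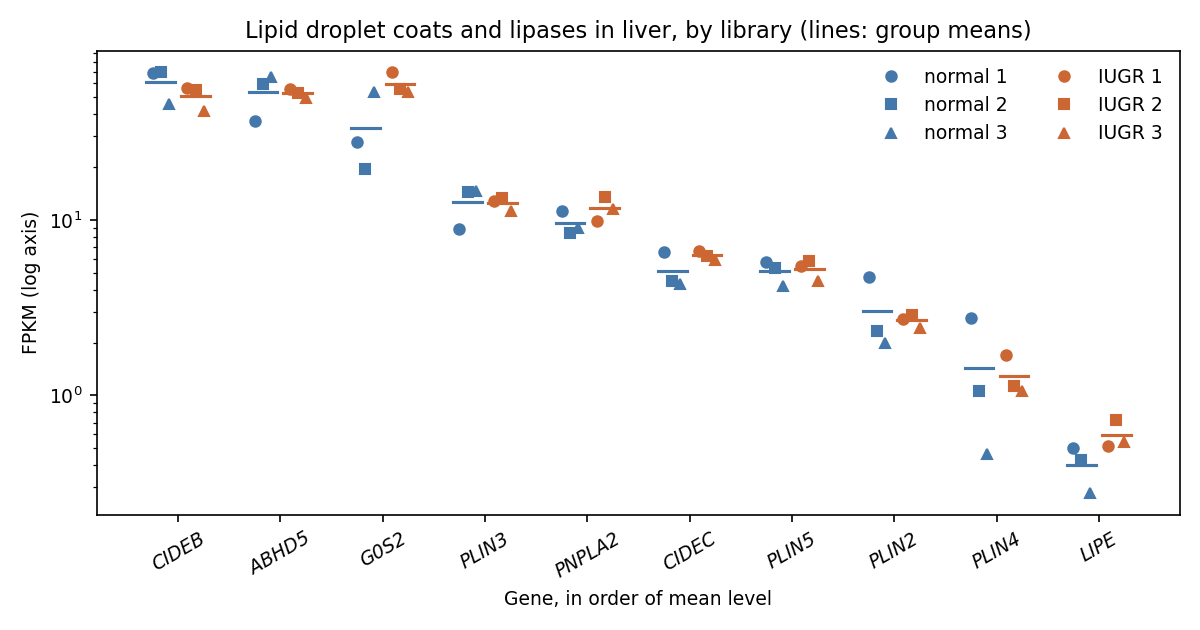
FPKM of the 10 genes in each library on a log axis, ordered by mean level, with normal pigs in blue, IUGR pigs in orange, a marker shape per replicate and a line at each group mean. CIDEB, ABHD5 and G0S2 sit between 19.5 and 69.9 FPKM, and LIPE lies lowest at 0.276 to 0.726 FPKM.

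limma called 0 of the 10 genes higher and 0 lower in IUGR pigs, beside 0.00679% of all tested loci called higher and 0.0136% called lower (0.0204% in either direction). At an unadjusted p under 0.05, 1 of the 10 was higher (G0S2) and 0 were lower, against 6.0% and 0.794% of all tested loci. The fold change was positive for 8 genes and negative for 2. Of the 8, PLIN3, PLIN4 and ABHD5 had a lower mean FPKM in IUGR than in normal pigs (ratio of means 0.990, 0.904 and 0.978). The fold change exceeded the median of all tested loci for only 4 genes, and the median of the 10 was 0.028. Without normal replicate 1 that median was 0.23, and the median of all tested loci was then 0.30. Between the libraries of larger and smaller mapped ratio limma also called 0 of the 10, beside 0.407% of tested loci higher and 0.0407% lower in the former, with ABHD5 (-0.43, adjusted p = 0.153) and PLIN2 (0.42, adjusted p = 0.199) among the largest differences. Within the 2 sets, each with a lone pig in 1 arm (normal 1 and IUGR 1), the difference between IUGR and normal pigs had the same sign for 3 genes (PNPLA2, LIPE and G0S2) and opposite signs for 7. It was -0.66 in the set of larger and 0.23 in that of smaller mapped ratio for PLIN2, 0.43 and -0.17 for PLIN3, -0.85 and 0.63 for PLIN4, -0.10 and 0.52 for CIDEC, -0.53 and 0.0056 for CIDEB, 0.47 and -0.17 for ABHD5, and 0.15 and 0.16 for PNPLA2. The 95% interval of the difference between IUGR and normal pigs excluded a change of 1 on the log2(FPKM + 1) scale in either direction for 9 of the 10 genes, all but G0S2. For genes near or below 1 FPKM, such as LIPE and PLIN4, the added 1 narrows these intervals, so the same change in their FPKM itself is not excluded. In simulated libraries of this size the test recovered 25% of genes simulated with a log2 change of 1 and 80% of those with a change of 2. These changes were placed only in loci with a mean log2(FPKM + 1) above 2, and PLIN2, PLIN4 and LIPE lie below that level. Noise was drawn separately for each locus, without shifts shared by a whole library, so the shares are not the recovery for these genes.

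**Figure D2:**
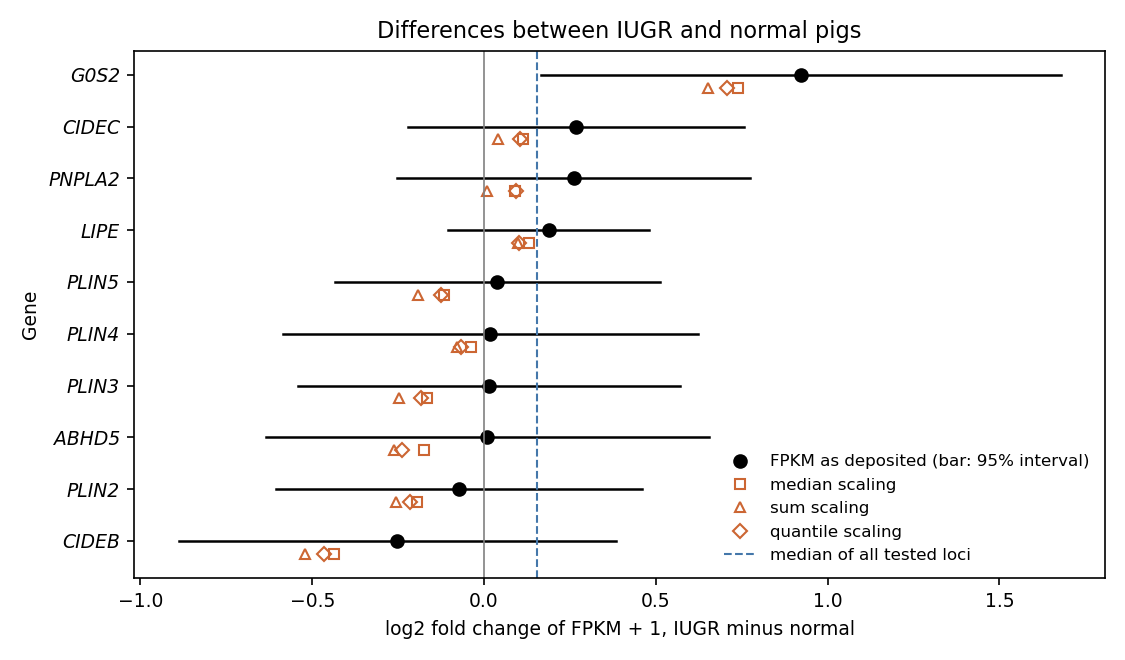
log2 fold change of FPKM + 1 (IUGR minus normal) for each gene, with the 95% interval from limma as a bar, the values after 3 ways of scaling the libraries as open symbols, and the median of all tested loci (0.15) as a dashed line. Of the 10 intervals only that of G0S2, from 0.17 to 1.68, lies above 0, and its adjusted p was 0.593.

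Among the perilipins, PLIN2, which coats droplets in most cells and is the coat usually taken as a sign of stored fat in hepatocytes, did not differ between the groups beyond the spread of the normal pigs. Its locus is on chromosome 1, 227334093 to 227356760 of Sscrofa10.2, the build of all positions given here. That span is shared with a known locus without a symbol, ENSSSCG00000005172, at 0.102 to 0.791 FPKM. PLIN2 was at 4.76, 2.34 and 2.0 FPKM in normal 1, 2 and 3, and at 2.72, 2.89 and 2.43 FPKM in IUGR 1, 2 and 3. Normal 1 was the highest library, and all IUGR pigs lay between it and the other normal pigs. Its log2 fold change was -0.072 (95% interval -0.60 to 0.46, adjusted p = 0.956 from limma), and 0.22 without normal replicate 1. After scaling the libraries it was -0.20 to -0.26. The known loci with the most similar profile over the 6 libraries were CYP2U1, FRA10AC1 and ID2, with a root mean square difference of 0.027, 0.034 and 0.039 between centred log2 values, against a median of 0.26 over all tested loci.

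PLIN3, a perilipin found both in the cytosol and on small, newly formed droplets, was the most abundant of the 4 per length. It was at 8.83, 14.4 and 14.6 FPKM in normal pigs and at 12.7, 13.4 and 11.3 FPKM in IUGR pigs. The IUGR values lay within the range of the normal pigs, where normal 1 was the lowest of all libraries although only 3.77% of tested loci were lowest there. On the log2 scale the difference was 0.014 (interval -0.54 to 0.57, adjusted p = 0.990 from limma), and -0.17 to -0.25 after scaling the libraries. PLIN3 lies on an unplaced scaffold of the build.

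PLIN5, which brings droplets to mitochondria in tissues that burn fat, varied little. It was at 5.75, 5.34 and 4.19 FPKM in normal pigs, against 5.47, 5.80 and 4.47 FPKM in IUGR pigs, a 1.38-fold range over all 6 libraries. The groups overlapped throughout, and differed by 0.039 on the log2 scale (interval -0.43 to 0.51, adjusted p = 0.974 from limma), or by -0.12 to -0.19 after scaling. Within the libraries of larger and of smaller mapped ratio it was -0.15 and 0.17. Its locus on chromosome 2, 74796832 to 74806557, is followed after 4237 bases by that of PLIN4.

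PLIN4, a perilipin best known from adipocytes and muscle, was low and the most variable of the 4, with a 6.0-fold range. It was at 2.77, 1.06 and 0.462 FPKM in normal pigs and at 1.69, 1.13 and 1.06 FPKM in IUGR pigs. Both its highest and its lowest value were those of normal pigs, normal 1 and normal 3. On the log2 scale the groups differed by 0.018 (interval -0.59 to 0.62, adjusted p = 0.988 from limma), with -0.29 without normal replicate 3 and 0.39 without normal replicate 1. With a pseudocount of 0.01 in place of 1 it was 0.19. The locus of PLIN4 (chromosome 2, 74810795 to 74850064) shares its span with a known locus without a symbol, ENSSSCG00000013511, at 3.22 to 8.24 FPKM.

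The summed level of the 4 perilipins was 22.1, 23.1 and 21.2 FPKM in normal pigs, against 22.6, 23.2 and 19.2 FPKM in IUGR pigs. After scaling the libraries to the same median it was 18.2, 26.6 and 27.1 in normal pigs, and 23.0, 19.6 and 18.4 in the IUGR group. The make-up of the sum varied most among normal pigs. PLIN3 held 39.9% of the sum in normal 1, 62.2% in normal 2 and 68.6% in normal 3, and 56.3 to 58.6% in the IUGR pigs. PLIN2 held 21.5% in normal 1, 10.1% in normal 2 and 9.43% in normal 3, and 12.0 to 12.7% in the IUGR pigs. The ratio of PLIN3 to PLIN2 was 1.86, 6.16 and 7.28 in normal pigs and 4.69, 4.63 and 4.63 in IUGR pigs. Thus the IUGR libraries lay close together, between normal 1 on one side and normal 2 and normal 3 on the other. These ratios within a library do not change when a library is scaled by a factor. The spread of FPKM was larger among normal than among IUGR pigs for 9 of the 10 genes, as it was for 75.9% of all tested loci.

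**Figure D3:**
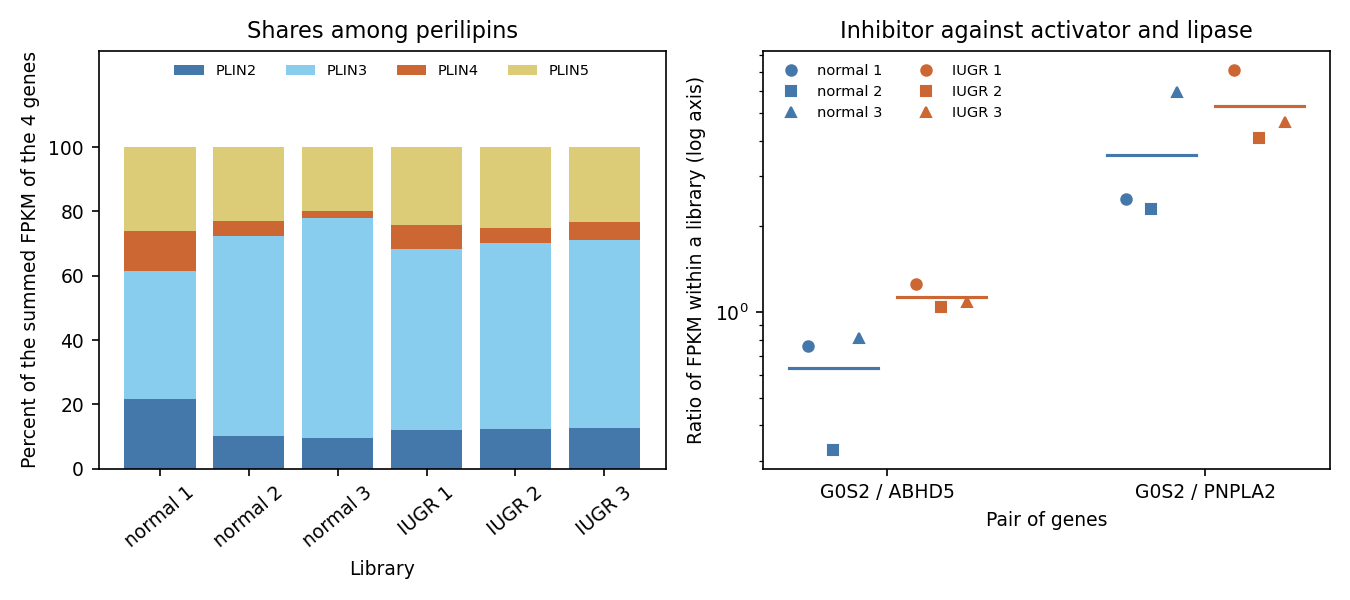
Left, the share of each perilipin gene in the summed FPKM of PLIN2 to PLIN5 in each library. Right, the FPKM of G0S2 divided by that of ABHD5 or of PNPLA2 in each library on a log axis, with lines at group means. PLIN3 holds 39.9% in normal 1 against 56.3 to 68.6% elsewhere, and the ratio of G0S2 to ABHD5 is at most 0.812 in normal and at least 1.04 in IUGR pigs.

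Of the CIDE genes, CIDEB, which in hepatocytes takes part in loading lipid onto very low density lipoprotein, was the member with the highest mean level. It was at 69.1, 69.7 and 45.8 FPKM in normal pigs, against 56.7, 54.7 and 41.6 FPKM in IUGR pigs. The 2 highest values were those of normal 1 and normal 2, but normal 3 lay below IUGR 1 and IUGR 2. CIDEB had a log2 fold change of -0.25 (interval -0.89 to 0.38, adjusted p = 0.897 from limma), the lowest of the 10 genes, and it was -0.44 to -0.52 after scaling. It was -0.12 without IUGR replicate 3 and -0.45 without normal replicate 3. The table gives CIDEB the same span as NOP9 and DHRS1 (chromosome 7, 80253783 to 80273673), which means that the spans of overlapping loci were merged. The ratio of CIDEB to NOP9 was nearly fixed, at 3.12 to 3.54 over the 6 libraries, whereas that to DHRS1 was 5.09 to 10.1. Whether fragments were assigned by strand is not given in the sources used here, so CIDEB and NOP9 cannot be fully told apart.

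CIDEC, which drives the growth of large droplets and is abundant in fat tissue and in fatty liver, was far below CIDEB. It was at 6.60, 4.48 and 4.29 FPKM in normal pigs, against 6.69, 6.26 and 5.88 FPKM in IUGR pigs. All IUGR pigs lay above normal 2 and normal 3, and normal 1 lay among the IUGR pigs. CIDEC had a log2 fold change of 0.27 (interval -0.22 to 0.76, adjusted p = 0.884 from limma), 0.43 without normal replicate 1 and 0.040 to 0.11 after scaling. The ratio of CIDEB to CIDEC was 10.5, 15.6 and 10.7 in normal pigs and 8.47, 8.74 and 7.07 in IUGR pigs, and the groups did not overlap. This ratio was one of several formed between members after their values were seen, and it was not tested. The span given for CIDEC (chromosome 13, 73216901 to 73233453) is shared with JAGN1, which was at 19.8 to 31.5 FPKM. The ratio of CIDEC to JAGN1 was 0.199 to 0.217 in all libraries but IUGR 1, where it was 0.279. As with CIDEB and NOP9, CIDEC and JAGN1 cannot be fully told apart.

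PNPLA2, the first lipase of triglyceride breakdown, did not differ beyond the spread. It was at 11.2, 8.46 and 9.0 FPKM in normal pigs, against 9.84, 13.6 and 11.6 FPKM in IUGR pigs. IUGR 2 and IUGR 3 were the highest libraries, and normal 1 was above IUGR 1. PNPLA2 differed by 0.26 on the log2 scale (interval -0.25 to 0.77, adjusted p = 0.886 from limma) and 0.0089 to 0.093 after scaling. PNPLA2 lies on chromosome 2, 156291 to 161297.

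LIPE, the hormone-sensitive lipase that cuts diacylglycerol in fat cells, was close to the floor of the test. It was at 0.501, 0.430 and 0.276 FPKM in normal pigs, against 0.518, 0.726 and 0.545 FPKM in IUGR pigs. All IUGR pigs were above all normal pigs, by a small margin between IUGR 1 and normal 1, and this held after scaling the libraries to the same median. LIPE and G0S2 were the 2 of the 10 genes whose groups did not overlap with IUGR higher, against 8.39% of all tested loci, and 0 of the 10 were lower in this way, against 1.22% (9.6% in either direction). The log2 fold change of LIPE was 0.19 (interval -0.11 to 0.48, adjusted p = 0.876 from limma). At this level the added 1 draws the fold change toward 0, and it was 0.49 and 0.58 with pseudocounts of 0.1 and 0.01, with adjusted p = 0.873 and 0.870. The span of LIPE on chromosome 6, 45437521 to 45454683, holds a pair of further loci without annotation at up to 1.02 FPKM.

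ABHD5, the activator of PNPLA2, was among the highest members, and its group means differed by less than the spread of the normal pigs. It was at 36.7, 59.4 and 65.7 FPKM in normal pigs, against 55.6, 53.2 and 49.5 FPKM in IUGR pigs. Like PLIN3 it was lowest in normal 1 and highest in normal 3, and the IUGR pigs lay between. On the log2 scale ABHD5 differed by 0.0096 (interval -0.63 to 0.65, adjusted p = 0.994 from limma), and -0.18 to -0.26 after scaling. Without normal replicate 1 it was -0.24. The ratio of ABHD5 to PNPLA2 was 3.27, 7.03 and 7.30 in normal pigs and 5.65, 3.92 and 4.28 in IUGR pigs. It lies on chromosome 13, 29833568 to 29883671.

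G0S2, the small protein that binds PNPLA2 and blocks it, had the largest difference of the 10 genes. It was at 27.9, 19.5 and 53.4 FPKM in normal pigs, against 69.9, 55.5 and 53.6 FPKM in IUGR pigs, with means of 33.6 ± 17.6 and 59.7 ± 8.88 FPKM (SD, n = 3 each). Normal 1 and normal 2 were well below all IUGR pigs, while normal 3 reached the level of IUGR 3, so the groups were separate by a narrow margin and overlapped after scaling to the same median. The log2 fold change was 0.92 (standard error 0.35, unadjusted p = 0.0207, adjusted p = 0.593 from limma), and 0.65 to 0.74 after scaling. It was 0.60 without normal replicate 2 and 1.31 without normal replicate 3. Within the libraries of larger mapped ratio it was 0.94, and within the others 1.09, with a lone pig in 1 arm of each set. The adjusted p was 0.171 to 1 over all alternatives, so the difference did not pass the test under any of them.

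G0S2 was also set against its partners within each library. The ratio of G0S2 to ABHD5 was 0.761, 0.328 and 0.812 in normal pigs and 1.26, 1.04 and 1.08 in IUGR pigs. Thus ABHD5 was the more abundant transcript per length in every normal pig and G0S2 in every IUGR pig. The ratio of G0S2 to PNPLA2 was 2.49, 2.31 and 5.93 in normal pigs, against 7.10, 4.09 and 4.64 in the IUGR group, and here normal 3 lay among the IUGR pigs. No p is given for these ratios, since members were combined after their values were seen.

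Around G0S2 (chromosome 9, 146493481 to 146494458) the table holds 10 further loci within 10 kb, 8 of them without annotation. In 3 of the 10, chosen after their values were seen, every IUGR pig was above every normal pig, against 4.96% of all assembled loci and 5.28% of those with a mean of at least 0.3 FPKM. The unannotated locus 8384 bp from G0S2, 254 bp long, was at 0.599, 0.251 and 0.655 FPKM in normal pigs, against 5.10, 2.28 and 3.30 FPKM in IUGR pigs. The unannotated locus 3026 bp from G0S2, 193 bp long, was at 1.42, 0.908 and 1.86 FPKM in normal pigs, against 8.24, 3.36 and 4.42 FPKM in IUGR pigs. Both lie at lower coordinates than G0S2, and in both IUGR 1 was the highest library, as it was for G0S2. In a limma fit over all 95962 assembled loci with a mean of at least 0.3 FPKM, their log2 fold changes were 1.57 and 1.35, with adjusted p = 0.354 and 0.522. On the other side CAMK1G, a protein kinase gene whose locus starts 9191 bp away, was at 0.265, 0.267 and 0.153 FPKM in IUGR pigs and at 0.0759 FPKM or less in normal pigs, which is under the filter.

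**Figure D4:**
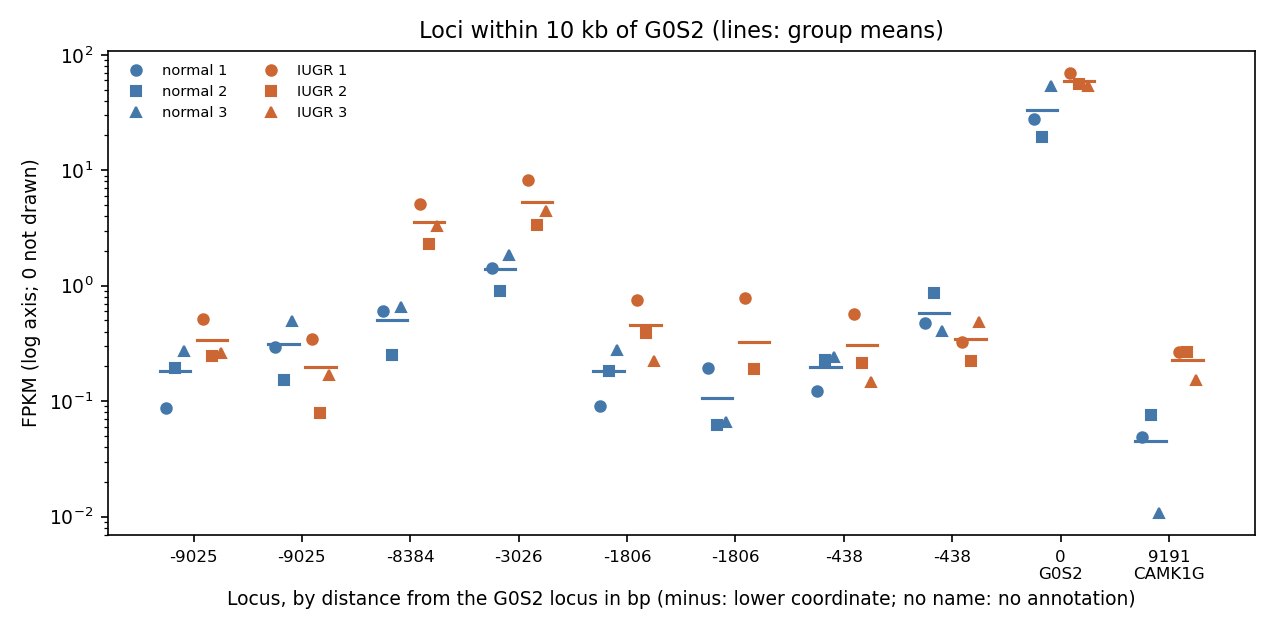
FPKM on a log axis of G0S2 and of the loci within 10 kb of it that are above 0 in some library, ordered by position and marked with their distance from the G0S2 locus in bp (loci of equal distance share coordinates). The loci at 8384 and 3026 bp before G0S2 and CAMK1G have every IUGR pig above every normal pig, and the nearest loci, at 438 bp, do not.

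Markers of other cells that a liver sample could hold were read beside these genes, and limma called 0 of them. All 8 markers of stellate cells and fibroblasts, which themselves store retinyl ester in droplets, had a fold change above the median of all tested loci. Of the 8, 6 were higher at an unadjusted p under 0.05 from limma, against 6.0% of all tested loci. The summed level of the 8 was 120 to 138 FPKM in normal pigs, against 280 to 365 FPKM in IUGR pigs. However, COL3A1 was listed at 0 in normal 1, where its estimate had failed. Without COL3A1, 5 of 7 had an unadjusted p under 0.05, and the sums were 56.8 to 135 and 125 to 165 FPKM, and overlapped. Of 10 markers of adipocytes, 8 had a locus and 3 passed the filter, none of which was called. Their sum was 32.5 to 65.3 FPKM in normal pigs, against 39.5 to 76.2 FPKM in IUGR pigs, nearly all of it from CFD, a complement protease. Among the markers that define fat cells, LEP was listed at 0 in every library, ADRB3 was at 0.0483 FPKM or less, and PLIN1, the coat of adipocyte droplets, was at 0.474 to 1.06 FPKM. CIDEA, a CIDE protein of fat cells, has a locus joined with IMPA2, so its values are not those of CIDEA alone. That joint locus was at 2.34 to 2.57 FPKM in normal and 2.65 to 3.62 FPKM in IUGR pigs (adjusted p = 0.877 from limma). PPARG, the regulator of fat cell formation, was under the filter at 0.139 to 0.207 and 0.240 to 0.286 FPKM. The groups of neither locus overlapped, with IUGR higher, against 8.39% of tested and 4.96% of all assembled loci. SLC2A4 and RETN, also under the filter, had overlapping groups, with means of 0.302 and 0.0773 FPKM in normal pigs. In IUGR pigs their means were 0.269 and 0.106 FPKM. Of 5 measured markers of endothelium, 2 had an unadjusted p under 0.05, PECAM1 and VWF, both higher in IUGR pigs in the mean. The groups overlapped for VWF. STAB2 (0.47) and KDR (0.43) had a larger p, and LYVE1 was at -0.068. Of 4 measured cholangiocyte markers 1 was higher at this cut, SPP1, with overlapping groups. For Kupffer cells and macrophages it was 0 of 6, with a median log2 fold change of 0.15. For hepatocytes it was 0 of 7, with a median of -0.070, against 0.15 for all tested loci. That median includes TF at -3.99, which was listed at 0 in normal 1, IUGR 2 and IUGR 3. The other hepatocyte markers were at 0.40 (TTR), 0.43 (APOA1), 0.72 (SERPINA1), -0.089 (HNF4A), -0.59 (CPS1) and -0.070 (FGB). The part of stellate cells, adipocytes or endothelium in the values of G0S2, LIPE, PLIN4 or CIDEC was not tested.

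Other genes of the pathway were read from lists chosen by function. Of 18 measured droplet proteins outside the 10 genes, limma called 0 higher and 0 lower. At an unadjusted p under 0.05, 2 were higher (PNPLA3 and LSS), against 6.0% of all tested loci. The median log2 fold change of the 18 was 0.22, against 0.15 for all tested loci. PNPLA3, a hepatocyte droplet lipase known from a human variant linked to fatty liver, was at 11.0, 1.35 and 0.971 FPKM in normal pigs, against 6.19, 11.0 and 9.84 FPKM in IUGR pigs. Normal 1 was at the level of the highest IUGR pigs, far above the other normal pigs, and the log2 fold change was 1.36 (adjusted p = 0.607 from limma). Without normal replicate 1 it was 2.18 and called (adjusted p = 0.0287 from limma). The next lowest p belonged to LSS and BSCL2 and then to TMEM135. LSS, an enzyme of sterol synthesis, stood at 0.78 (adjusted p = 0.713 from limma), and BSCL2, which encodes seipin, the protein of droplet budding, one of 0.49 on a locus joined with another gene. TMEM135 was at 31.5 ± 1.48 FPKM in normal pigs, against 44.6 ± 5.40 FPKM in the IUGR group (SD, n = 3 each), without overlap (0.48 on the log2 scale). HSD17B13, a droplet enzyme of hepatocytes, was by far the most abundant of the list, at 640 to 2202 FPKM, and stood at 0.49 (adjusted p = 0.891 from limma).

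Of 13 measured neutral lipid hydrolases other than PNPLA2 and LIPE, 0 were called. At an unadjusted p under 0.05, 2 were higher, PNPLA3 (also in the list above) and PNPLA4, against 6.0% of all tested loci. The median log2 fold change of the 13 was 0.27. PNPLA4, a retinyl ester and triglyceride hydrolase, was at 1.88, 1.68 and 1.68 FPKM in normal pigs, against 3.49, 4.30 and 2.64 FPKM in IUGR pigs. The groups did not overlap, and the log2 fold change was 0.69 (adjusted p = 0.416 from limma). CES1, a carboxylesterase that mobilizes stored triglyceride for secretion, stood at 0.79 and LIPC, the hepatic lipase, at 0.53, with groups that overlapped in both. Some of these hydrolases were more abundant per length than PNPLA2, such as CES1 at 104 to 437 FPKM and LIPA, the lysosomal acid lipase, at 58.0 to 173 FPKM, and others less, such as PNPLA4. Of 21 measured genes for the control of lipolysis, 0 were called and 0 had an unadjusted p under 0.05, with a median of 0.20. The lowest p there belonged to PPARGC1A, a coactivator of oxidative genes, at 8.47, 4.85 and 5.82 FPKM in normal pigs, against 3.90, 4.51 and 4.66 FPKM in IUGR pigs (-0.43 on the log2 scale, adjusted p = 0.811 from limma). EGR1, a transcription factor, stood at 0.54 and GNAS, which couples hormone receptors to cyclic AMP, at 0.48, each with overlapping groups. PPARA, the fatty acid sensor that drives many droplet genes in the liver, was at 24.1 to 27.8 FPKM in normal pigs, against 23.3 to 35.9 FPKM in IUGR pigs, and stood at 0.065.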

How the data were processed

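The values are FPKM as the authors deposited them in 1 table, with 1 column per pig. Clean read pairs had been aligned by TopHat 2.0.14 on Bowtie 2.0.6, loci assembled by Cufflinks 2.2.1 and FPKM estimated by Cuffdiff 2.1.1. Versions are those of the submitters' processing notes, which name Sscrofa10.2 as the build, whereas the text of the study names another. Starts in the table count from 0 and are given here from 1. No counts were used, so the edgeR test named by the authors was replaced by limma 3.58.1 (functions lmFit and eBayes, trended variance, R 4.3.3) on log2(FPKM + 1) without further scaling. The filter kept known loci at a mean of 0.3 FPKM or more, and a call needed an adjusted p under 0.05. The table marks 59 loci with a status other than OK in some library, 33 of them tested. Each library was a separate pig, so the spread between animals and that between library preparations and sequencing runs cannot be told apart. An exact permutation test of 1 gene at this group size has 0.1 as its smallest p.

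Older symbols were resolved through Ensembl identifiers and RefSeq synonyms (Sscrofa11.1, names only). The members and lists were chosen with earlier results of these data known. The text names all members, the list genes with the lowest p (up to 4 a list) and the 3 loci with a symbol most like PLIN2. Further genes were named after their values were seen (HSD17B13, LIPA, PPARA, CAMK1G, TF, genes sharing a member's span and the loci near G0S2). Of the genes with the lowest p, 1 is not reported here. Genes without a locus under their symbol were not analysed here. The model was tested on simulated data. Tables were handled with Python 3.11.15, pandas 2.3.3 and numpy 2.4.6, and figures drawn with matplotlib 3.10.9. Alternatives changed the pseudocount, filter, scaling, variance model, loci with a status other than OK, libraries, thresholds, a factor for the mapped ratio and a block by replicate number. Averaging IUGR 2 with IUGR 3 was also tried, since they were the closest libraries.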

Additional observations from a re-analysis of the deposited data

Results flagged for a closer look

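Outside the tested known loci, signals higher in every IUGR pig than in any normal pig were seen at a pair of unannotated loci beside G0S2. The log2 fold change was 1.57 at the locus 8384 bp away and 1.35 at the locus 3026 bp away, in a fit over all assembled loci chosen after seeing the data, with adjusted p = 0.354 and 0.522 from limma. They are short loci with low values, and the strand of the table's loci is not given in the sources used here. Groups of 3 pigs are too small for a test of single libraries that stand apart.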

How the results depend on the processing

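In all 20 alternatives for the count, 0 of the 10 genes were called in either direction by limma. G0S2, CIDEC, PNPLA2 and LIPE kept a positive and CIDEB a negative fold change in every alternative that gave a value (LIPE has none with a filter of 1 FPKM). Signs turned for the others. After median, sum and quantile scaling PLIN3 was at -0.17, -0.25 and -0.18, PLIN4 at -0.039, -0.077 and -0.066, PLIN5 at -0.12, -0.19 and -0.12, and ABHD5 at -0.18, -0.26 and -0.24. A factor for the mapped ratio gave -0.11 for PLIN4. With 1 library left out the range was -0.25 to 0.22 for PLIN2, -0.20 to 0.13 for PLIN3, -0.29 to 0.39 for PLIN4, -0.072 to 0.13 for PLIN5, -0.24 to 0.17 for ABHD5 and 0.60 to 1.31 for G0S2. The median of the 10 genes was 0.0039 to 0.23 with 1 library left out, highest without normal replicate 1, and -0.13 after sum scaling, where the median of all tested loci was -0.050.

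The count of tested loci called higher and lower (1 and 2) was 3 and 1 with a pseudocount of 0.1, 1 and 1 with 0.01, 5 and 6 with a filter of 1 FPKM, 30 and 6 with a robust trend, 5 and 5 over loci with status OK, and 12 and 6 with IUGR 2 and IUGR 3 averaged. It was 1 and 0 without a filter, without a trend, after each of the 3 scalings and at the thresholds of the study. With 1 library left out it was 3 to 128 higher and 1 to 30 lower, most without IUGR replicate 1, which leaves the closest libraries as the only IUGR pigs. The cause was not tested. The replicate numbers are not said to mark litters, and same-numbered pigs did not deviate together (correlations of -0.22, -0.072 and -0.17). With the replicate block 166 loci were higher and 79 lower, and 1 droplet protein and 1 hydrolase, both PNPLA3, were higher. PNPLA3 was the 1 call in these lists without normal replicate 1, and with other libraries left out there were 0. Depth per locus was not analysed here, so how precise any one value is cannot be given.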
